A study of Rattus norvegicus with 24 samples.

Results

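The genes described here had a much lower level in the dorsal horn of adult than of neonatal rats, and the question was whether a nerve injury moves them. They are Tcf7l2, Casr, Rras2, Dpysl4, Ptpro, Pnlip and Car3. The members were all probe sets whose only platform gene symbol is one of these 7 symbols, which gave 9 probe sets of the 15866 that are not controls, and 7 of the 10411 genes named on the array. The genes were chosen by their measured difference between adult sham and neonate sham arrays, so that difference is given as a description with no test.

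The tissue was the dorsal horn of the spinal cord, where sensory fibres from the periphery end, taken from the operated side of Sprague-Dawley rats. Adult SNI rats, aged 8 to 12 weeks, had spared nerve injury: of the sciatic nerve's branches the tibial and the common peroneal were tied and cut and the sural was spared, 7 days before. Adult sham rats of the same age had the nerve exposed only. Neonate SNI and neonate sham rats, labelled postnatal day 10, had the same operations, and pups stayed with their mothers. All were operated under isoflurane, each group had 6 arrays described as biologically independent, and the labels do not say whether day 10 is the age at surgery or at collection.

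Each array reports the log2 level of a transcript in the whole tissue piece, so fewer cells of a type and less RNA per cell cannot be told apart. Values above 3.84 log2, the filter level and the 40th percentile of all values, were taken as above background. Array medians ran from 5.57 to 5.67 log2, and no 2 arrays correlated below 0.984. The share of probe sets above the filter level ran from 59.7% to 60.4% per array, and the percentile fixes the average of that share. Of 13 dorsal horn neuron markers on the array, 10 or 11 lay above the filter level on all arrays of each group, Penk (the enkephalin precursor) and Slc17a6 (a vesicular glutamate transporter) among the brightest; Tlx3, a transcription factor of excitatory dorsal horn neurons, lay below it throughout. The mean of 7 motor neuron markers, of which Calca and Prph also mark sensory fibres, varied widely, from 4.95 to 7.29 log2 over adult SNI arrays, 4.28 to 7.51 over adult sham, 4.35 to 6.72 over neonate SNI and 4.41 to 6.40 over neonate sham.

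The genes belong to different pathways. Tcf7l2 is a DNA-binding factor of the Wnt pathway: when Wnt signals stabilise beta-catenin, it binds Tcf7l2 and its relatives on DNA and switches their targets, and in the central nervous system Tcf7l2 is known for its expression in oligodendrocytes as they differentiate and begin to make myelin. Casr is a cell surface receptor that senses extracellular calcium, Rras2 (TC21) is a small GTPase of the Ras family, and Dpysl4 (CRMP3) is one of the collapsin response mediator proteins, which act in growing axons and dendrites. Ptpro is a receptor-type tyrosine phosphatase known from kidney podocytes and from axon guidance, whereas Pnlip (pancreatic triglyceride lipase) and Car3 (a carbonic anhydrase of skeletal muscle and fat) are best known from other tissues.

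The RefSeq promoter table held 6 of the 7 genes, all but Car3, each as 300 bases from 250 before to 50 after the gene's start on the rat build GRCr8. The 3 windows that held any of the motifs searched are printed 5′ to 3′ on the gene's strand, with matches in capitals. How alike the sequences of the windows are was not tested. Tcf7l2 is at chr1:264791085-264791384 (+), Casr at chr11:77740364-77740663 (+) and Pnlip at chr1:267784360-267784659 (+).
Tcf7l2: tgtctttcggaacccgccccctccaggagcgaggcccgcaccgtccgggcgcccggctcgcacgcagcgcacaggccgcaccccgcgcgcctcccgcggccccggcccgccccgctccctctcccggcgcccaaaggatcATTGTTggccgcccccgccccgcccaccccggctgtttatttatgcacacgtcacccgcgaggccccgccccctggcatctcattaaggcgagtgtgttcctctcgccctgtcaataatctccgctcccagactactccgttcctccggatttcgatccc
Casr: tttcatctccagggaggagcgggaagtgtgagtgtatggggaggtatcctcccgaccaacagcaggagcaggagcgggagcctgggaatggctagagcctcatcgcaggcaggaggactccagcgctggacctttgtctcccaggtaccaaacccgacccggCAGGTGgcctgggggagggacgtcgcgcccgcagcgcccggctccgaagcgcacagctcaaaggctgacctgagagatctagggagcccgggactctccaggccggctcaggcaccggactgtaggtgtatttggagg
Pnlip: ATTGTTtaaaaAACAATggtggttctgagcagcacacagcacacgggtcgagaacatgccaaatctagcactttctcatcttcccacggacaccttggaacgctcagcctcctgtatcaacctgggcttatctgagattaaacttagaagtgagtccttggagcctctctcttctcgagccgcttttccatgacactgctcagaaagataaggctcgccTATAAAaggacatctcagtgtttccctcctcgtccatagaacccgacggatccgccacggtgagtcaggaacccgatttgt

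Matches to 6 motifs were sought on both strands. The SOX motif AACAAT was found in Tcf7l2 (at -110 from the start, on the opposite strand, so that the window reads ATTGTT) and at 2 places in Pnlip, at -250 and -239, and 11.7% of all 33469 windows in the table hold it. The E-box CAGGTG was found in Casr at -88 (18.8% of all windows), the E-box CAGCTG in none (15.1%), and TATAAA in Pnlip at -31 (14.2%). Neither TCF/LEF motif, CTTTGAA or CTTTGAT, was in any of the 6 windows, against 8.73% of all windows that hold at least 1. The windows also differed in base content: GC was 70.3% for Tcf7l2, 68.7% for Ptpro, 64.7% for Casr, 61.3% for Rras2, 56.3% for Dpysl4 and 49.3% for Pnlip, against a median of 51.7% over all windows. Tcf7l2 had 36 CpG dinucleotides and Dpysl4 had 10, against a median of 7. On chromosome 1 lie 4 of the 6 genes (Tcf7l2, Rras2, Dpysl4 and Pnlip), and it holds 12.8% of all windows. These matches are strings of letters, not shown binding sites.

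The levels that defined the genes come first. Tcf7l2, with the lowest, median and highest array given for each group, had 6.38, 7.09 and 7.35 log2 in adult SNI, 5.71, 7.00 and 7.49 in adult sham, 8.49, 9.00 and 9.10 in neonate SNI, and 8.48, 9.03 and 9.27 in neonate sham rats. Every adult array was below every neonate array, while SNI and sham arrays of an age overlapped. Adult sham had the widest spread of the 4 groups (SD 0.72 log2, n = 6), with 1 array at 5.71.

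Casr, the calcium-sensing receptor, had 2.41, 2.91 and 3.06 log2 in adult SNI, 2.29, 2.88 and 3.01 in adult sham, 5.43, 5.91 and 6.49 in neonate SNI, and 5.07, 5.78 and 6.28 in neonate sham rats. No adult array reached the filter level, so in adults only an upper bound is known. Car3, the muscle and fat carbonic anhydrase, had 2.25, 2.87 and 3.07 log2 in adult SNI, 2.58, 2.79 and 2.90 in adult sham, 5.21, 5.51 and 6.06 in neonate SNI, and 4.93, 5.72 and 6.50 in neonate sham rats. It was likewise below the filter level on all 12 adult arrays.

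Pnlip, the lipase, had 6.79, 7.09 and 7.56 log2 in adult SNI, 6.77, 7.25 and 7.53 in adult sham, 9.93, 10.18 and 10.53 in neonate SNI, and 9.80, 10.11 and 10.71 in neonate sham rats. Rras2, the Ras-family GTPase, had 8.05, 8.30 and 8.52 log2 in adult SNI, 8.23, 8.39 and 8.78 in adult sham, 10.10, 10.48 and 10.58 in neonate SNI, and 10.20, 10.38 and 10.74 in neonate sham rats. For both genes the 2 ages were separate on every array and the 2 operations overlapped within each age.

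Ptpro, the receptor phosphatase, had 6.36, 7.32 and 7.65 log2 in adult SNI, 6.42, 7.24 and 7.67 in adult sham, 9.08, 9.27 and 9.38 in neonate SNI, and 9.10, 9.34 and 9.43 in neonate sham rats. Its SD was 0.45 and 0.42 log2 in adult SNI and adult sham, against 0.12 and 0.12 in neonate SNI and neonate sham (n = 6 each). Dpysl4, the collapsin response mediator, had 5.59, 5.88 and 6.34 log2 in adult SNI, 5.23, 6.50 and 6.75 in adult sham, 7.92, 8.34 and 8.89 in neonate SNI, and 8.19, 8.32 and 8.52 in neonate sham rats. The adult sham array at 5.23 stood apart from the rest of its group, whose next lowest value was 6.36.

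**Figure D1:**
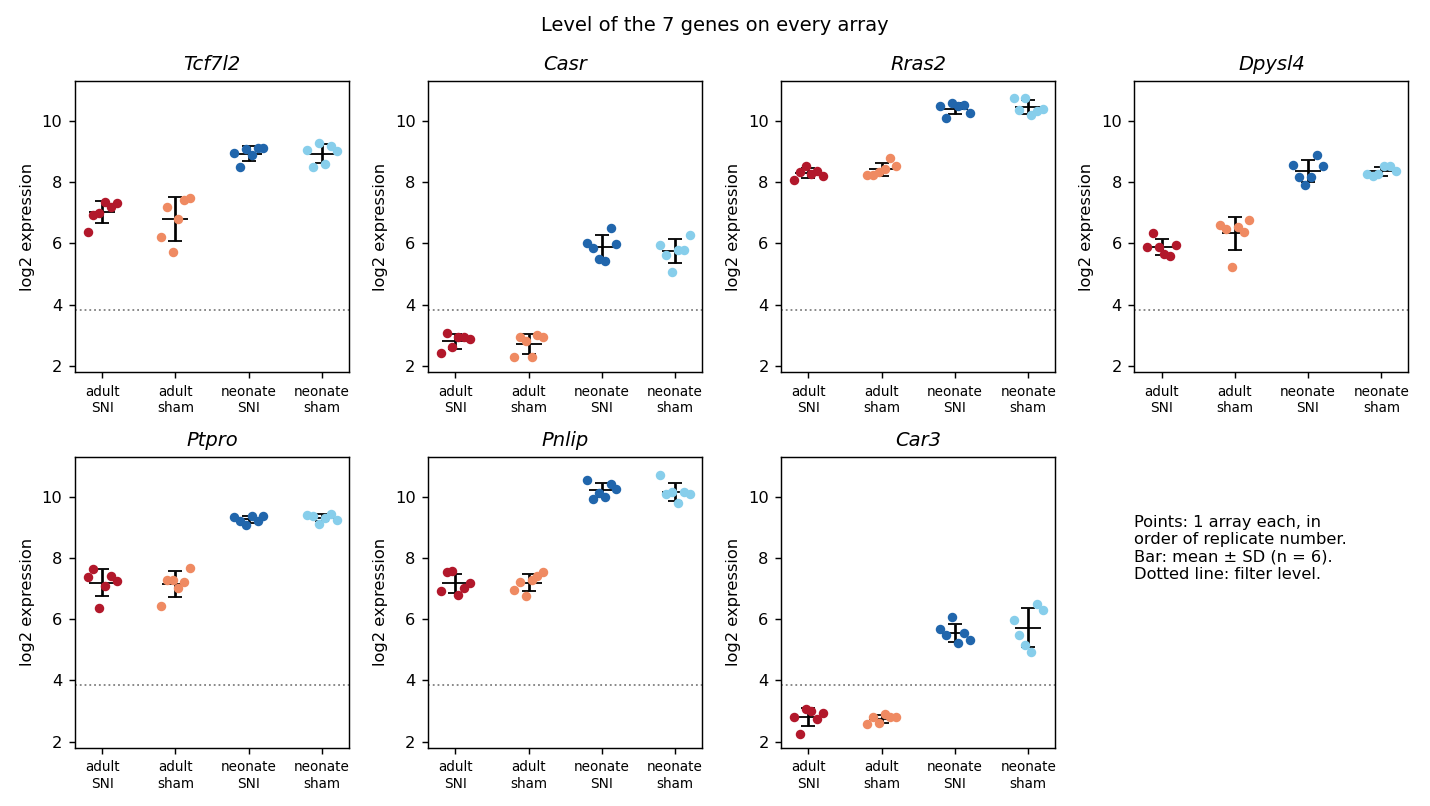
Log2 expression of the 7 genes on each of the 24 arrays, by group (adult SNI, adult sham, neonate SNI, neonate sham); points are arrays, bars the mean ± SD (n = 6) and the dotted line the filter level of 3.84 log2. Adult and neonate arrays do not overlap for any of the 7 genes, and Casr and Car3 lie below the dotted line on all adult arrays.

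A second probe set exists for Tcf7l2 and for Car3, and neither passed the filter. The second Tcf7l2 probe set read 2.09 to 2.15 log2 over adult SNI arrays and 2.12 to 2.15 over adult sham arrays, with at most 3.22 in neonate SNI and 2.63 in neonate sham rats. The second Car3 probe set stayed between 2.09 and 2.24 log2 on every array. Both are near the lowest value that the processing gives, so they give no second reading of the genes. All 7 genes were thus tested through 1 probe set each; Casr and Car3 passed the filter through their neonate arrays only, and the other 5 genes lay above the filter level on all 24 arrays.

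Between adult sham and neonate sham rats, the contrast that chose them, the 7 differences ran from -3.04 to -2.03 log2 and no gene's arrays overlapped, where 4.06% of all probe sets tested were lower without overlap; the choice fixed this. Casr differed by -3.04 log2 (at least 3.77-fold lower), Car3 by -2.97 (at least 3.69-fold) and Pnlip by -2.97 (7.83-fold), and these were the 3 lowest values of all 9638 probe sets tested. Here and in the other age comparison, "at least" sets the mean of the neonates against the filter level, because every adult array lay below it. Ptpro differed by -2.17 log2 (4.49-fold), Tcf7l2 by -2.13 (4.38-fold), Rras2 by -2.03 (4.10-fold) and Dpysl4 by -2.03 (4.07-fold). A difference of -2 log2 or less was found in 9 probe sets, or 0.0934% of those tested; the remaining 2 of these were both of Bdh1, an enzyme of ketone body metabolism, at -2.17 and -2.07. Just outside lay Emid1 at -1.88 and Traf3 at -1.83 log2.

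The same age difference was then tested in the injured animals, whose arrays the choice had not used. These arrays are not fully independent of the choice. SNI and sham arrays of the same number deviated together from their group means (correlations 0.10 to 0.56 in adults and 0.24 to 0.61 in neonates). The test did not use this pairing. Tcf7l2 averaged 7.03 ± 0.36 log2 in adult SNI and 8.93 ± 0.23 in neonate SNI rats (SD, n = 6 each), a difference of -1.90 (SE 0.24, 3.74-fold lower; limma adjusted p = 2.8e-06). Pnlip averaged 7.17 ± 0.32 log2 in adult SNI and 10.21 ± 0.24 in neonate SNI rats and differed by -3.04 (SE 0.16, 8.23-fold lower; limma adjusted p = 9.3e-13). Among the 9638 probe sets tested, the fitted difference of Pnlip ranked 2 from the lowest, after that of Casr, which starts from adult values below the filter level.

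Casr was lower in adult SNI than in neonate SNI rats by at least 4.11-fold, with a fitted difference of -3.07 log2 (limma adjusted p = 2.4e-11), and Car3 by at least 3.27-fold, with -2.75 log2 (limma adjusted p = 9.5e-10). These fitted differences rest on adult values below the filter level; with such values raised to that level they were -2.04 log2 for Casr and -1.71 for Car3. Averaged with the second, dim probe set of its gene, Tcf7l2 differed by -1.11 log2 and Car3 by -1.38. Dpysl4 differed by -2.49 log2 (SE 0.20, 5.61-fold; limma adjusted p = 1.6e-09), Rras2 by -2.11 (SE 0.11, 4.32-fold; limma adjusted p = 1.6e-12) and Ptpro by -2.07 (SE 0.17, 4.21-fold; limma adjusted p = 4.8e-09). The 5 genes whose 24 arrays all exceeded the filter level passed the test as lower in adults with no overlap between the groups, in a comparison where 11.5% of all probe sets were called lower and 4.2% were lower without overlap. Casr and Car3 passed too, but entered the test through neonate arrays alone and had to differ. Among the 9638 probe sets, of which 0.114% differed by -2 log2 or less, these 5 genes held ranks 2, 4, 8, 10 and 13 from the lowest. Casr and Car3 held ranks 1 and 3, which rest on adult values below the filter level. The others in that stretch were Emid1, both probe sets of Bdh1, Col6a3, Lama4 and Tgfbi, the last 3 coding for matrix proteins.

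**Figure D2:**
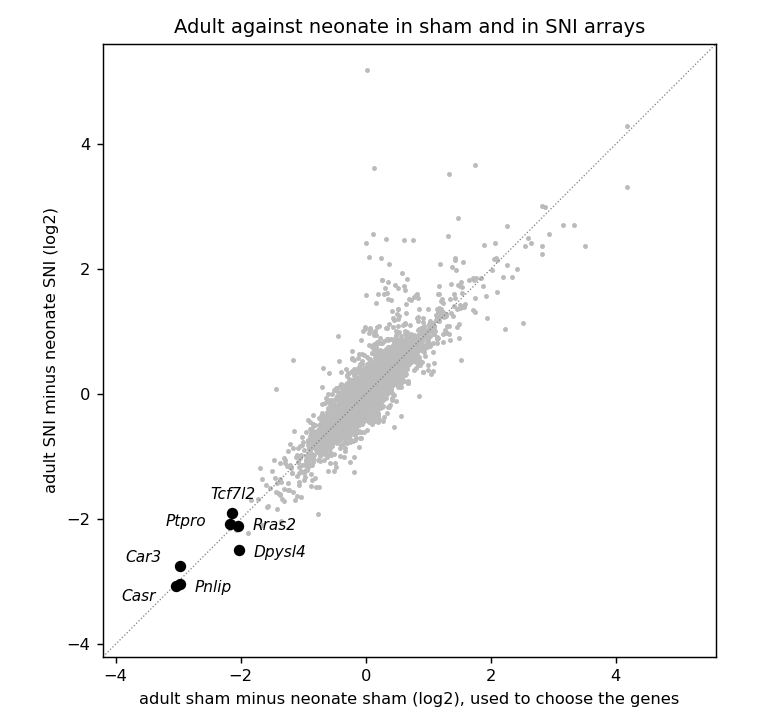
Log2 difference adult minus neonate for each of the 9638 probe sets tested, in sham arrays (horizontal axis, the values that chose the genes) and in SNI arrays (vertical axis); black points are the 7 genes and the dotted line marks equal values. The 7 genes lie close to the line at the low end, with Dpysl4 below it at -2.03 in sham and -2.49 in SNI arrays.

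Injury did not move any of the 7 genes past the threshold in adults. Casr and Car3 lay below the filter level on all adult arrays, so a fall could not have been seen in them, and 5 genes could be tested in both directions. Every injury comparison, in adults, in neonates and between the ages, uses sham arrays that also chose the genes and is not independent of the choice. Of the 7 genes, 0 passed limma's test, where 2% of all probe sets did (188 higher, 1.95%, and 5 lower, 0.0519%). At an unadjusted p under 0.05 the count was 1 of 7, Dpysl4, against 7.75% of all probe sets.

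Tcf7l2 averaged 7.03 ± 0.36 log2 in adult SNI and 6.80 ± 0.72 in adult sham rats (SD, n = 6 each), a difference of 0.23 with a 95% interval of -0.27 to 0.73 (limma adjusted p = 0.926). Rras2 averaged 8.29 ± 0.16 log2 in adult SNI and 8.42 ± 0.21 in adult sham rats, a difference of -0.14 with an interval of -0.37 to 0.10 (limma adjusted p = 0.897). Their SNI and sham arrays overlapped. Both intervals include 0 and do not reach the size of the age difference of the same gene.

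The intervals of the other genes were of like width. They ran from -0.30 to 0.48 log2 for Casr around 0.09, from -0.32 to 0.40 for Ptpro around 0.04, from -0.35 to 0.30 for Pnlip around -0.03 and from -0.38 to 0.49 for Car3 around 0.05, with limma adjusted p between 0.978 and 0.995. For Casr and Car3 both adult groups lay below the filter level, and no fold is given. Ptpro and Pnlip were higher on some SNI arrays and lower on others than on the sham array of the same number, 4 higher and 2 lower for Ptpro and 2 higher and 4 lower for Pnlip.

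Dpysl4 was the gene with the largest difference. Its values were 5.87, 6.34, 5.90, 5.64, 5.59 and 5.96 log2 on adult SNI arrays 1 to 6, and 6.61, 6.46, 5.23, 6.54, 6.36 and 6.75 on adult sham arrays 1 to 6. Every sham array but number 3 was above all 6 SNI arrays, and number 3 was below all of them. The difference was -0.44 log2 with a 95% interval of -0.85 to -0.04 (SE 0.20; unadjusted p = 0.0330 and adjusted p = 0.525 in limma), which ranked 44 from the lowest of 9638. Without adult sham array 3 it was -0.66 log2 and passed the test (limma adjusted p = 0.0103), when 181 probe sets were called in all. Over the leave-outs of each array in turn it ran from -0.66 to -0.36 log2, with adjusted p from 0.0103 to 0.767, and the adjusted p was 0.263 when replicate number entered the fit as a block. The SNI array was lower than the sham array of the same number in 5 of 6 pairs.

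Adult sham array 3 was also compared with the other adult sham arrays in the remaining genes and in marker lists. Besides Dpysl4 it was the lowest adult sham array for Tcf7l2 (5.71 log2) and Pnlip (6.77 log2), while array 1 was the lowest for Rras2, Ptpro and Car3. Of 25 gene lists of cell types and pathways, the mean of array 3 lay outside the range of the other 5 adult sham arrays in 9, and that of each other adult sham array in 3 to 14 lists. The lists in which array 3 lay below them included the CRMP family with semaphorin signalling (6.65 against 6.66 to 6.91 log2). What part this array has in the Dpysl4 result beyond the values without it was not tested.

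In neonates, against the sham arrays whose high values chose the genes, 0 of the 7 passed limma's test after injury, where 0.311% of all probe sets did, and 0 of 7 had an unadjusted p under 0.05, against 2.49% of all. Tcf7l2 averaged 8.93 ± 0.23 log2 in neonate SNI and 8.93 ± 0.32 in neonate sham rats (SD, n = 6 each), a difference of -0.00 with a 95% interval of -0.50 to 0.50. Car3 had the largest difference, -0.17 log2, with an interval of -0.60 to 0.26 and neonate sham arrays that spread more (SD 0.63) than neonate SNI arrays (SD 0.30). Dpysl4, at 8.37 ± 0.35 log2 in neonate SNI and 8.35 ± 0.14 in neonate sham rats, differed by 0.02 (-0.39 to 0.42), and of its 6 neonate SNI arrays 3 lay below and 3 above all neonate sham arrays. The differences of Casr, Rras2, Ptpro and Pnlip lay between -0.06 and 0.13 log2, and the limma adjusted p was 1 for all 7.

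Whether the injury effect differed between the ages was tested as an interaction. None of the 7 genes passed, where 0.228% of all probe sets did. At an unadjusted p under 0.05 in limma the count was 0 of 7, against 2.47% of all probe sets. For Casr and Car3 the adult side of this test lay below the filter level, and both sham groups that chose the genes enter it. Dpysl4 had the largest value, an injury effect lower in adults than in neonates by 0.46 log2, written -0.46 with a 95% interval of -1.03 to 0.11 (unadjusted p = 0.109 in limma). Without adult sham array 3 it was -0.68 log2 (limma adjusted p = 0.481).

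**Figure D3:**
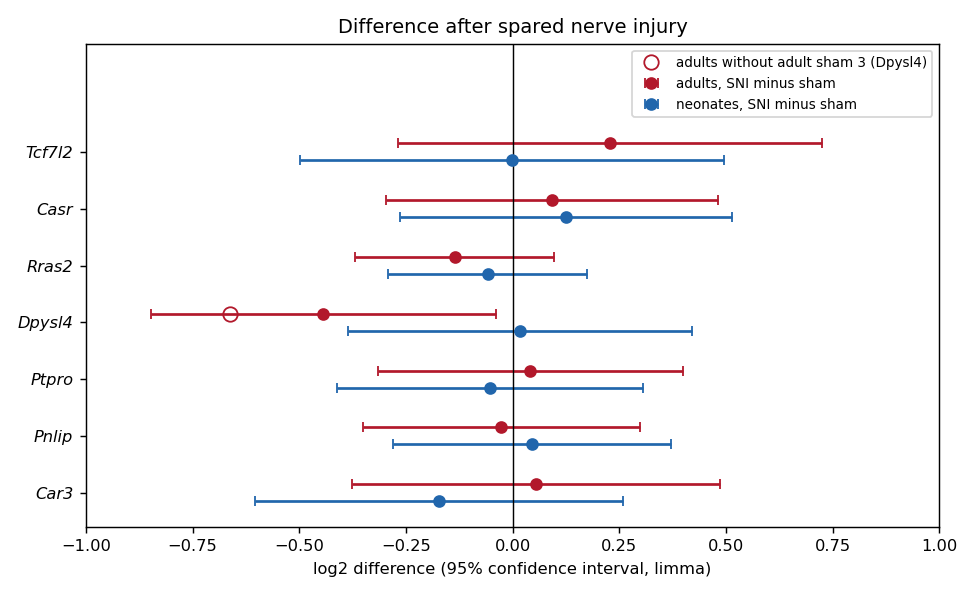
Log2 difference SNI minus sham for the 7 genes in adults (red, upper of each pair) and neonates (blue), with limma's 95% confidence intervals; the open circle is Dpysl4 in adults without adult sham array 3. Every interval includes 0 except that of Dpysl4 in adults, which runs from -0.85 to -0.04.

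The genes were also compared array by array, after each value was expressed as its deviation from the mean of its own group, which removes age and operation. Over the 24 arrays, 17 of the 21 gene pairs correlated above 0, with a median Pearson's r of 0.21 and a range from -0.14 to 0.63. With the means of the replicate numbers removed the median r was 0.14. The share of pairs above 0 among all genes was not computed. In pairs with Casr or Car3, the adult deviations of these 2 genes are between values below the filter level. Rras2 and Pnlip correlated best, with Pearson's r = 0.63 (permutation p = 0.0022 within groups, adjusted over 21 pairs 0.0466) and Spearman's rho = 0.59 (permutation p = 0.0046, adjusted 0.0966). Without the 2 arrays farthest from the median r was 0.55, and with the means of the replicate numbers removed it was 0.80. Dpysl4 and Pnlip had r = 0.53 (permutation p adjusted over 21 pairs 0.0792), which did not pass. All 24 arrays were normalized together, and the labels give no batch by which to divide them.

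**Figure D4:**
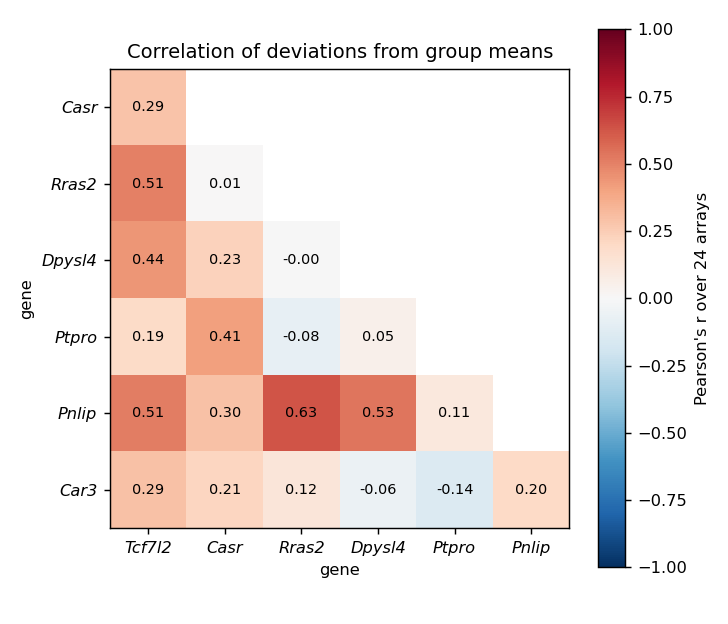
Pearson's r between the 7 genes over 24 arrays, on deviations from group means; red is positive, blue negative. Rras2 with Pnlip is highest at 0.63, and Ptpro with Car3 lowest at -0.14.

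For each gene the 3 other genes with the most similar log2 values over the 24 arrays were named. Traf3, an adaptor of tumour necrosis factor receptors, was among the 3 for all 7 genes, with Pearson's r from 0.95 for Tcf7l2 to 0.99 for Pnlip. Rras2 and Pnlip were the nearest to each other (r = 0.99). Ppp2r1b, a scaffold subunit of protein phosphatase 2A, was among the 3 for Rras2, Ptpro and Pnlip, Marchf8 (a ubiquitin ligase) for Dpysl4, and Nrep, a transcript of growing neurons, for Car3 (r = 0.97). These likenesses follow the age difference that chose the genes. On deviations from group means the nearest gene was Snx4 for Tcf7l2 (r = 0.85), Josd1 for Casr (0.84) and Larp1b for Rras2 (0.68). It was Tbc1d13 for Dpysl4 (0.84), Ptpn23 for Ptpro (0.81), Sec13 for Pnlip (0.69) and Kat6b for Car3 (0.77). Each of these is the highest r picked from all tested genes, so it is large by selection, and none was tested. Adult deviations of Casr and Car3 are between values below the filter level. Snx4 was also among the 3 for Tcf7l2 on the log2 values (r = 0.94). Pnlip was among the 3 for Rras2 by both measures (r = 0.63 on deviations).

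Pathway partners and relatives of the genes were read in the same comparisons. In that of adult SNI with neonate SNI rats, 20.9% of all probe sets tested were called, 9.32% higher and 11.5% lower, with a median difference of -0.04 log2. Of 23 tested genes of Wnt signalling to TCF factors 1 was higher and 3 were lower (median -0.06). Tle1, a co-repressor of TCF factors, fell by 1.23 log2 (limma adjusted p = 1.5e-06), the secreted Wnt antagonists Sfrp2 and Frzb differed by -1.67 and -0.65, and Tle4 rose by 0.52. Axin2, a target that Wnt signals induce, averaged 4.94 log2 in adult SNI and 5.14 in neonate SNI rats (-0.20, limma adjusted p = 0.555). The TCF relatives Tcf7, Tcf7l1 and Lef1 were below the filter level, at most 2.52 log2 in any group mean.

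Among 20 tested genes of the Ras family and its regulators 1 was higher and 3 were lower in adult SNI than in neonate SNI rats (median -0.01 log2). Rasgrp3, an exchange factor that activates Ras and Rap proteins, was higher by 2.70 log2, at 8.31 in adult SNI and 5.61 in neonate SNI rats (limma adjusted p = 2.4e-08), opposite to Rras2. Mras, a close relative of Rras2, differed by 0.12 log2 and did not pass (limma adjusted p = 0.658), and Rras was below the filter level. After injury in adults Rap1b passed, 0.37 log2 higher in SNI than in sham rats (limma adjusted p = 0.00997).

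Among the relatives of Dpysl4, Crmp1 fell by 0.82 log2 in adult SNI against neonate SNI rats (limma adjusted p = 5.9e-05), while Dpysl2, at 12.7 log2 in both groups, Dpysl3 and Dpysl5 differed by 0.03, -0.48 and -0.02 and did not pass. Of 15 tested genes of the CRMP family and semaphorin signalling 4 were lower and 0 higher (median -0.25), Fyn, a kinase of growing axons and oligodendrocytes, with -1.04 and Plxna1, a semaphorin receptor, with -0.44. After injury in adults Nrp1, a semaphorin receptor, was 1.20 log2 higher in SNI than in sham rats (limma adjusted p = 0.0233).

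The carbonic anhydrases related to Car3 went both ways, 3 higher and 3 lower of 7 tested. Car14 was higher by 1.61 log2 and Car2, the carbonic anhydrase of oligodendrocytes, by 0.62, while Car11 differed by -0.77 and Car10 by -0.55. Of 13 receptor tyrosine phosphatases related to Ptpro, 1 was higher (Ptprc, the leukocyte antigen CD45, by 1.60 log2) and 2 were lower (Ptprn2 and Ptprs, by -0.57 and -0.35). Ptprc was also 1.73 log2 higher in adult SNI than in adult sham rats (limma adjusted p = 3.2e-06). Of 7 class C receptors related to Casr, the metabotropic glutamate receptor Grm3 was higher by 1.30 log2, and Grm7 and Grm4 differed by -0.84 and -0.45. Of 5 lipases, Lpl, the lipoprotein lipase, differed by -1.05 log2 and Lipa, the lysosomal lipase, by 0.37.

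Markers of the cell types in which 3 of the genes are known were set beside them. For Tcf7l2 these were 10 genes of differentiating oligodendrocytes, whose mean per array ran from 8.11 to 8.43 log2 in adult SNI, 8.12 to 8.39 in adult sham, 8.59 to 8.97 in neonate SNI and 8.54 to 8.92 in neonate sham rats, with no overlap of the ages. Of 9 tested, 5 were lower in adult SNI than in neonate SNI rats and 1 was higher (median -0.71 log2). Nfasc, a protein of axon-glia junctions, differed by -1.25, Cnksr3 by -0.71 and Enpp6, an early marker of new oligodendrocytes, by -0.64, against -1.90 for Tcf7l2, whereas Bcas1 was 0.36 higher. Of 6 precursor markers 4 were lower (median -0.38), and of 12 genes of mature oligodendrocytes and myelin 2 were lower and 2 higher (median -0.03), Mbp, the myelin basic protein, differing by 0.01. After injury in adults 0 of these 3 lists' genes passed, where 2% of all probe sets tested did. The part of these cells in the Tcf7l2 difference was not tested.

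For Pnlip the markers of pancreatic acinar cells were all near background. All 14 on the array, digestive enzymes and their factors, lay below the filter level on every array of every group, with a mean per array from 2.10 to 2.19 log2, while Pnlip stood at 6.77 to 10.71 log2 over the 24 arrays. For Car3, 11 of 15 skeletal muscle markers lay below the filter level on all arrays of each group, among them Ckm, Myh2, Myh4 and Actn3. The mean of the list was on average higher in adults, though adult SNI arrays overlapped with neonate arrays. It ran from 3.98 to 4.24 log2 over adult SNI and 4.14 to 4.35 over adult sham arrays. Over neonate SNI arrays it ran from 3.67 to 4.02, and over neonate sham arrays from 3.81 to 4.11. Tnnc2, a troponin, was 2.37 log2 higher in adult SNI than in neonate SNI rats. Of 9 adipose markers 7 lay below the filter level in each group, and Lpl was lower in adults as given above. The mean of the adipose list ran from 2.53 to 2.65 log2 over adult SNI and 2.49 to 2.67 over adult sham arrays. Over neonate SNI arrays it ran from 2.65 to 2.77 log2, and over neonate sham arrays from 2.69 to 2.77. The part of either tissue in the Car3 difference was not tested.

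Other cell type lists moved with age too. Of 11 tested genes of immature neurons 6 were lower in adult SNI than in neonate SNI rats and 1 was higher (median -0.29 log2), Nrep by -1.30 and Dcx, a microtubule protein of migrating neurons, by -1.06. Of 11 genes of fibroblasts and meninges 5 were lower and 0 higher (median -0.64), Col1a1, a collagen, by -1.35. Astrocyte genes had 3 higher and 0 lower of 13, and 0 of 13 pan-neuronal genes passed in either direction. Of 11 dorsal horn neuron genes 3 were lower and 0 higher (median -0.26). The microglia and macrophage list differed most in number, with 12 higher and 0 lower of 15 (median 1.37 log2). In the interaction 4 of these 15 passed, with a larger injury effect in adults. After injury in adults, when none of the 7 genes passed, 14 of 15 tested microglia and macrophage genes were higher (median 1.73 log2). The part of these cells in the age difference of the 7 genes was not tested.

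**Figure D5:**
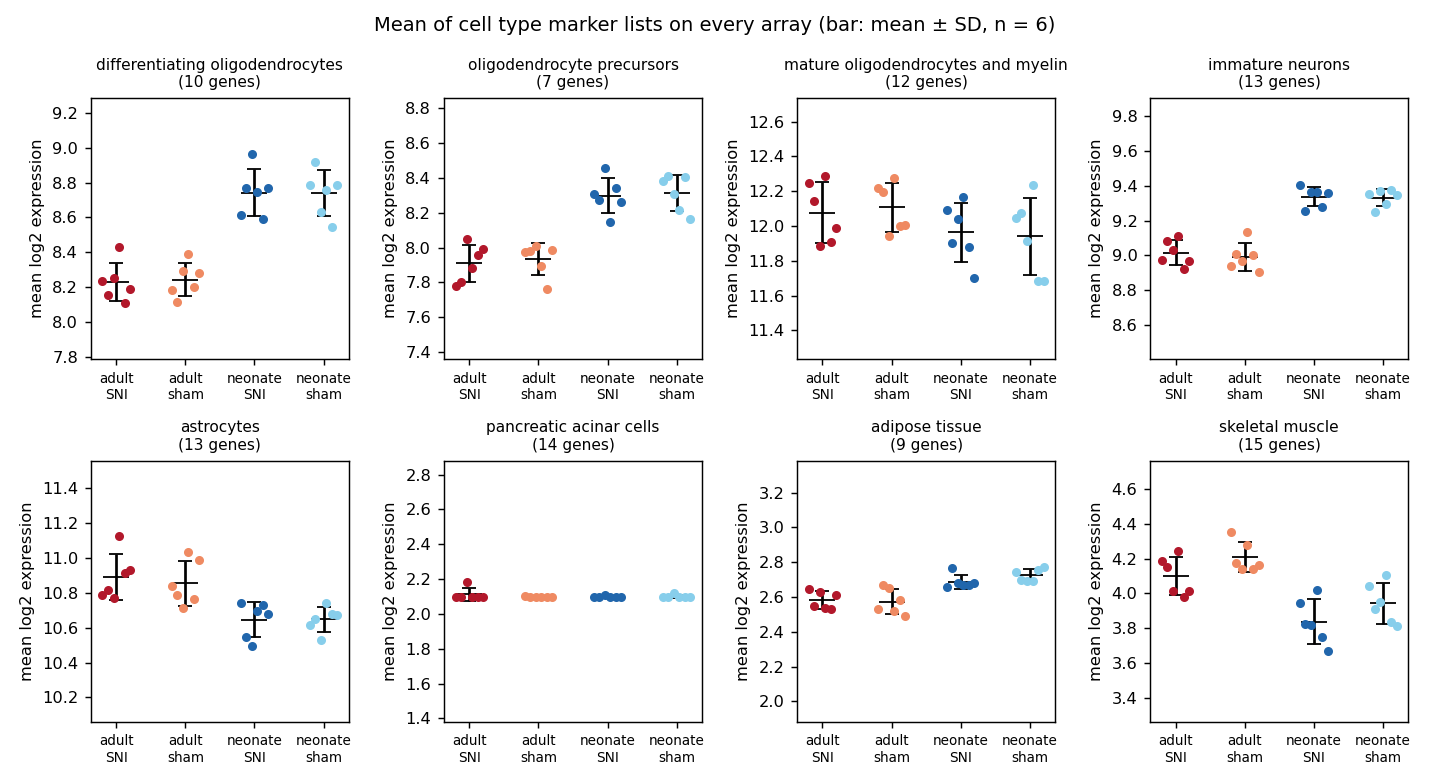
Mean log2 expression of 8 cell type marker lists on each array, by group; points are arrays and bars the mean ± SD (n = 6), each panel spanning 1.5 log2 on its own range. The lists of differentiating oligodendrocytes, precursors and immature neurons are lower in both adult groups, and pancreatic acinar markers stay near 2.10 in all groups. On average the skeletal muscle list is higher and the adipose list lower in adults. Both have some overlap of adult and neonate arrays and most genes below the filter level.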

How the data were processed

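Total RNA from 24 dorsal horns was, per the labels' protocols, made into biotinylated cRNA and hybridised to the Affymetrix Rat Expression 230A array. The deposited values are log2 expression per probe set, which the authors made with GCRMA, per the submitters' processing notes, with no version given in the sources used here and no genome build of the array. Dim probe sets can read near a common low value, as the second Car3 probe set did on every array (2.09 to 2.24 log2). The size of a difference that starts from values below the filter level is therefore uncertain. After 57 controls were taken out, 15866 probe sets remained: the platform annotation names 1 gene for 12783 of them, several for 312 and none for 2771, and 12748 matched a RefSeq rat gene. A gene with several probe sets was represented by the brightest on average.

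Testing was limited to the 9638 probe sets (7006 genes) with 6 or more arrays above 3.84 log2, the 40th percentile. A limma model (3.58.1, R 4.3.3) with a mean per group gave two-sided p-values, adjusted by Benjamini-Hochberg over all probe sets tested, with a threshold of 0.05; intervals are 95% and unadjusted. The fit was also run on simulated data with known differences in adult SNI arrays. Those data had no shared deviation of same-numbered arrays, so that run cannot check the unpaired p-values given here. Correlations used 100000 permutations within groups, which did not keep arrays of the same number together. Promoter windows came from RefSeq, build GRCr8.

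The 7 genes and the gene lists were chosen with earlier results of these data known. Named beside the 7 genes were their closest relatives, for each the 3 most correlated genes by either measure, and from each list up to 4 genes with the smallest p and its brightest markers; Axin2, Bcas1, Mbp, Tlx3 and the muscle genes at background were added after their values were seen. Sham and SNI arrays of the same number deviated together from their group means (correlations 0.10 to 0.56 in adults and 0.24 to 0.61 in neonates, 6 of 6 at or above 0.1 in each). Same-numbered arrays were therefore compared within an age, though the meaning of the number is not in the labels. The main model did not use this pairing, so its p-values and intervals treat the arrays as unpaired. Replicate number entered as a block only among the alternatives, where 297 probe sets were called after injury in adults against 193. Results were computed again under 10 alternatives and without each of the 24 arrays. Plots used matplotlib 3.10.9 (Python 3.11.15).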

Additional observations from a re-analysis of the deposited data

Results flagged for a closer look

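Dpysl4 on adult sham array 3 was 5.23 log2, far from the other 5 adult sham arrays, which lay between 6.36 and 6.75. The gap was larger than Dixon's 95% limit for groups of 6 samples. In all, 28 groups of 6 arrays were checked this way, and chance alone marks about 1 in 20 of them. Adult SNI arrays lay between 5.59 and 6.34 log2, so the difference of SNI from sham was -0.44 log2 with the array (limma adjusted p = 0.525) and -0.66 without it (limma adjusted p = 0.0103). The cause of the low value was not tested.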

How the results depend on the processing

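For the 5 genes above background in both ages, the lower level in adult SNI than in neonate SNI rats kept its direction and passed the test in all 165 values from the alternatives and left-out arrays, between -3.12 and -1.11 log2 with a highest limma adjusted p of 2.5e-05. The -1.11 is Tcf7l2 as the mean over its probe sets, against -1.90. Casr and Car3 had to differ once past the filter and are left out of this count; Casr became -2.04 and Car3 -1.71 with values raised to the filter level, and Car3 -1.38 as the mean over its probe sets. Of the injury values of all 7 genes, 227 of 236 in adults and 219 of 236 in neonates kept direction and side of the threshold. For the difference in injury effect between the ages, 220 of 229 did. The number of the 7 genes called in adults ran from 0 to 1 over the left-out arrays; without adult sham array 3 Dpysl4 passed. With the replicate block its adjusted p was 0.263, and 0.239 with a block per age, and the block changed no call of the 7 genes.

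Probe sets called after injury in adults numbered 193 and became 106 with a filter at the 60th percentile, 297 with the replicate block and 291 with the replicate block per age. The difference in injury effect between the ages had 22 and then 6 with the 60th percentile filter. Neonate injury had 30 and then 18 when only the groups of the contrast were fitted. The stricter filter tests fewer genes (level 6.88 log2) and drops Casr and Car3; the cause of the other changes was not tested.

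Differences near 0 changed sign. Tcf7l2 in neonates was 0.0012 log2 after a second quantile normalization and 0.051 as the mean over its probe sets. Over left-out arrays, adult injury ranged from -0.10 to 0.21 for Ptpro and -0.11 to 0.048 for Pnlip. Neonate injury ranged from -0.091 to 0.087 for Tcf7l2, -0.010 to 0.23 for Casr, -0.11 to 0.0011 for Rras2, -0.087 to 0.11 for Dpysl4 and -0.026 to 0.16 for Pnlip. The difference in injury effect between the ages ranged from -0.14 to 0.10 for Casr, -0.051 to 0.26 for Ptpro and -0.18 to 0.0021 for Pnlip. A block per age was run for the injury contrasts only. Fitting only the groups of the contrast is the same fit for the difference in injury effect between the ages. Values of Casr and Car3 in adults are bounds, and 6 arrays per group limit all intervals.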
